A study of Homo sapiens with 647 samples.

Results

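The genes described here are 38 named genes of glycolysis and the response to low oxygen, out of 54592 genes in the table of read counts. They were chosen by name, as a list of glucose transporters, glycolytic enzymes, lactate and pyruvate genes, the hypoxia-inducible factor HIF1A, its prolyl hydroxylases and genes known to follow it, and all 38 had a row. Earlier results of these data were known when the list was drawn up. The cells were T47D, an estrogen receptor-positive human breast cancer line. The receptor lines carried FGFR1 or one of 4 forms of FGFR2 (FGFR2_WT, FGFR2_M538I, FGFR2_N550K and FGFR2_K660N) by lentivirus from the pLX307 plasmid. Another line carried the ligand FGF3, and the control lines were GFP and parental cells. The labels do not say whether a line was 1 clone. Cells were plated for 48 h in 96-well plates and treated for 24 h. The agents were FGF2, the ligand (dose not given in the sources used here), fulvestrant at 100 nM, which degrades the estrogen receptor, palbociclib at 1 uM, an inhibitor of CDK4/6, FIIN-3 at 100 nM, an inhibitor of FGFR kinases, and trametinib at 500 nM, an inhibitor of MEK. They were given alone or in mixtures beside DMSO or untreated controls, and SMART-Seq2 libraries were made from the lysates.

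Each group of line and treatment held 4 to 6 of the 647 libraries. The numbers in the titles run through 2 times, and these runs are called set 1 (with DMSO, FGF2 and the fulvestrant mixtures) and set 2 (with palbociclib alone and most palbociclib mixtures). FIIN-3 alone was the treatment found in both. Library totals lay between 512961 and 13012180 counts in set 1 and between 619509 and 4804935 in set 2, with medians of 7570052.5 and 2887186, so low genes were measured less precisely in set 2. In 16 libraries, 14 of set 1 and 2 of set 2, the mitochondrial ribosomal RNA MT-RNR2 held under 5% of the counts. These stand apart, and results that change without them are given both ways. Group means of FGFR1 lay between 8.47 and 10.46 log2 CPM in the FGFR1 line, against at most 4.23 in the others, those of FGFR2 between 7.35 and 10.14 in the FGFR2 lines, against at most 4.54, and those of FGF3 between 7.08 and 8.90, against at most 0.03. The luminal markers EPCAM, KRT8, KRT18, KRT19, GATA3, FOXA1 and ESR1 had reads in all 647 libraries. The summed fibroblast markers had a median of 23.3 CPM in set 1, and the blood markers 1.19 CPM. Separate cultures are not stated for the libraries of a group, so p-values measure the spread between these libraries, which may be technical.

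Glycolysis takes up glucose through SLC2A transporters, commits it at hexokinase and phosphofructokinase and ends in pyruvate, which lactate dehydrogenase A turns into lactate for export by SLC16A carriers. In well-oxygenated cells EGLN prolyl hydroxylases mark HIF1A protein for destruction. When oxygen falls HIF1A accumulates and binds short motifs near many of these genes, and growth factor signalling can raise some of them in normal oxygen. Much of this control acts on HIF1A protein, which mRNA counts do not show.

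The promoters are shown because many of the members are known HIF targets. RefSeq promoters (build GRCh38.p14, whereas the counts were made on hg19) were found for 33 of the 38 members, not for SLC2A3, VEGFA, NDRG1, BNIP3L and SLC16A1. The core letters of the HIF motif, ACGTG or GCGTG on either strand, occurred in 42 of 61 member windows of 300 bases (68.9%) and in 48.4% of all 35114 windows. ACGTG alone was in 41% of member windows and 21.4% of all windows, and GCGTG in 42.6% and 36.5%. The 250 bases before the start are printed for P4HA1, PGK1 and SLC2A1, which rose with FGF2 in the receptor lines, and for ALDOC, which fell, with the core letters in capitals. P4HA1 has 1 match, PGK1 has 3, ALDOC has 5, counted on both strands with overlaps, and SLC2A1 has none in this window. The same window was read for EGLN3 and PKM, which rose in the receptor lines and have none, and for PDK3, which rose and has 2. It was also read for DDIT4, which fell when FGF2 was added to fulvestrant and has 3. The 300-base windows used for the shares also hold 50 bases after the start. In these PKM and SLC2A1 have GCGTG, and EGLN3 has no match. A match describes letters, and nothing follows from it about binding.
P4HA1 (chr10:73096867-73097116, minus strand): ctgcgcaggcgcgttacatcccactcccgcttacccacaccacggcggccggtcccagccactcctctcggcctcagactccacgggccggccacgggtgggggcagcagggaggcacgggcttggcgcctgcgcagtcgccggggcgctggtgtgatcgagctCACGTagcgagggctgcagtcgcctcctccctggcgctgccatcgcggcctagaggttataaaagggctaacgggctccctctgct
PGK1 (chrX:78103998-78104247, plus strand): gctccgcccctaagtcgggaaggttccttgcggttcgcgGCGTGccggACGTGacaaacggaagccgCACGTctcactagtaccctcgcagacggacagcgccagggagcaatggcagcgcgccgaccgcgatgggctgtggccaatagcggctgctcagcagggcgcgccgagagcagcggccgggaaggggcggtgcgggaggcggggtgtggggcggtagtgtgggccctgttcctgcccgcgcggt
SLC2A1 (chr1:42958869-42959118, minus strand): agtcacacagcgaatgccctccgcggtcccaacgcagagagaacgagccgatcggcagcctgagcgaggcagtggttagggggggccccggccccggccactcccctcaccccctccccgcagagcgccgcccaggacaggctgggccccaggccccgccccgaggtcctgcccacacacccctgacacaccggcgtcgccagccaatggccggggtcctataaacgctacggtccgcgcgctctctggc
ALDOC (chr17:28576896-28577145, minus strand): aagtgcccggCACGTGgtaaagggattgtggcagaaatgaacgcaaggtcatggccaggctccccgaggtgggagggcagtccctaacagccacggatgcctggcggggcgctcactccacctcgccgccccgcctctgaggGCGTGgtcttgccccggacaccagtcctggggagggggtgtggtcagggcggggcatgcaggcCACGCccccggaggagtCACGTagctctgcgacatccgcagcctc

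The members differed widely in level. In the 12 DMSO libraries of the control lines the authors' TPM values, which allow for gene length, had medians of 2230 TPM for the enolase ENO1, 2015 TPM for GAPDH and 1016 TPM for the aldolase ALDOA. The pyruvate kinase PKM had a median of 357.5 TPM, LDHA 308.7 TPM and the phosphoglycerate kinase PGK1 244.4 TPM. The glucose transporter SLC2A1 (GLUT1) was far lower at 12.6 TPM, and the hexokinase HK2 had 1.69 TPM. HIF1A had a median of 17.8 TPM and EGLN3, a prolyl hydroxylase that is itself induced by HIF, 3.64 TPM. PDK1, a kinase that inhibits pyruvate dehydrogenase, had 0.578 TPM and the angiogenic factor VEGFA 0.534 TPM. The carbonic anhydrase CA9, a common hypoxia marker, was at 0 in 10 of the 12 libraries and the transporter SLC2A3 (GLUT3) in all 12. CA9 and SLC2A3 had too few reads to be tested in any comparison.

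Over the 64 groups of set 1 the widest span of group means was that of NDRG1, a stress- and hypoxia-inducible gene, with -0.45 and 3.73 log2 CPM as its lowest and highest. The lowest was FGFR2_N550K with FGF2 and the highest GFP with fulvestrant, FGF2 and FIIN-3. Group means of EGLN3 lay between 2.92 and 5.87, of HK2 between 1.75 and 4.13, of SLC2A1 between 4.38 and 6.19 and of LDHA between 8.02 and 10.41 log2 CPM. Those of PDK1 lay between 1.12 and 3.02, of HIF1A between 4.38 and 6.48 and of PGK1 between 8.99 and 10.22. VEGFA lay between -1.39 and 1.38 and CA9 between -1.85 and -0.66, the lowest of CA9 being the value that no reads give. The FGFR1 line with FGF2 held the highest group mean of HK2, PDK1 and HIF1A, and with fulvestrant, FGF2 and trametinib that of LDHA. In the 48 groups of set 2 EGLN3 lay between 2.98 and 5.13, HK2 between 2.81 and 4.57, SLC2A1 between 4.25 and 6.28 and LDHA between 8.14 and 10.62.

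In the FGFR1 line FGF2 added to fulvestrant raised 13 of the 34 members tested and lowered 5 (edgeR's quasi-likelihood test, p-values adjusted by Benjamini and Hochberg across every gene in the fit, threshold 0.05, used throughout). Of all genes tested 12.7% were higher and 14% lower, and the median log2 fold change was 0.32 over the members and -0.02 over all genes. PFKP, the platelet form of phosphofructokinase, was at 7.62, 7.71 and 7.90 log2 CPM (lowest, median and highest of 6 libraries) with fulvestrant and FGF2, against 5.87, 6.08 and 6.24 in 6 with fulvestrant alone. SLC16A3, the lactate exporter MCT4, was at 4.59, 5.17 and 5.70 with FGF2, against 2.41, 3.31 and 4.13 without. P4HA1, a collagen prolyl hydroxylase, was at 4.50, 5.39 and 5.69 with FGF2, against 3.03, 3.87 and 4.26 without. In these 3 genes every library with FGF2 lay above every library without it. Overlap was read in the members alone, here and below, so how common its absence is over all genes is not known. The log2 fold changes were 1.60 ± 0.11 (SE) for PFKP, 1.73 ± 0.26 for SLC16A3 and 1.42 ± 0.24 for P4HA1, with edgeR adjusted p of 3.48e-08, 0.000129 and 0.000325.

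The mRNA of the glucose transporter SLC2A1, of LDHA and of EGLN3 rose in the same FGFR1 libraries. SLC2A1 was at 5.21, 5.62 and 5.81 log2 CPM with FGF2, against 4.20, 4.67 and 4.94 without (0.89 ± 0.16, edgeR adjusted p 0.000449). LDHA was at 9.82, 10.24 and 10.48 with FGF2, against 8.26, 9.14 and 9.68 (1.02 ± 0.19), and EGLN3 at 4.95, 5.06 and 5.38 against 4.14, 4.26 and 4.38 (0.83 ± 0.14). The groups did not overlap in any of the 3. ALDOA (0.68), PKM (0.54) and PDK3 (0.57) also rose without overlap, and PFKFB3 (1.12), HK2 (0.77), HIF1A (0.75) and PGK1 (0.55) rose with overlapping libraries. PFKFB3 makes the activator of phosphofructokinase. GAPDH (0.06), ENO1 (-0.02) and the triosephosphate isomerase TPI1 (0.27) did not pass. PDK1 had 0.74 and an adjusted p of 0.0988.

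The members that fell in the FGFR1 line were 2 isoforms and 3 stress-inducible genes. DDIT4, an inhibitor of mTORC1, was at 3.59, 3.90 and 4.12 log2 CPM with fulvestrant and FGF2, against 5.02, 5.41 and 5.60 with fulvestrant, with no overlap (-1.53 ± 0.16, edgeR adjusted p 2.69e-06). ALDOC, the brain form of aldolase, was at 4.48, 4.93 and 5.18 with FGF2, against 5.41, 5.997 and 6.31, and fell by 1.14. PFKM, the muscle form of phosphofructokinase, fell by 0.69 and NDRG1 by 2.29, and neither overlapped. The peptide hormone ADM fell by 0.70 with overlap. Isoforms of 1 enzyme thus moved in opposite directions, PFKP and ALDOA up and PFKM and ALDOC down.

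**Figure D1:**
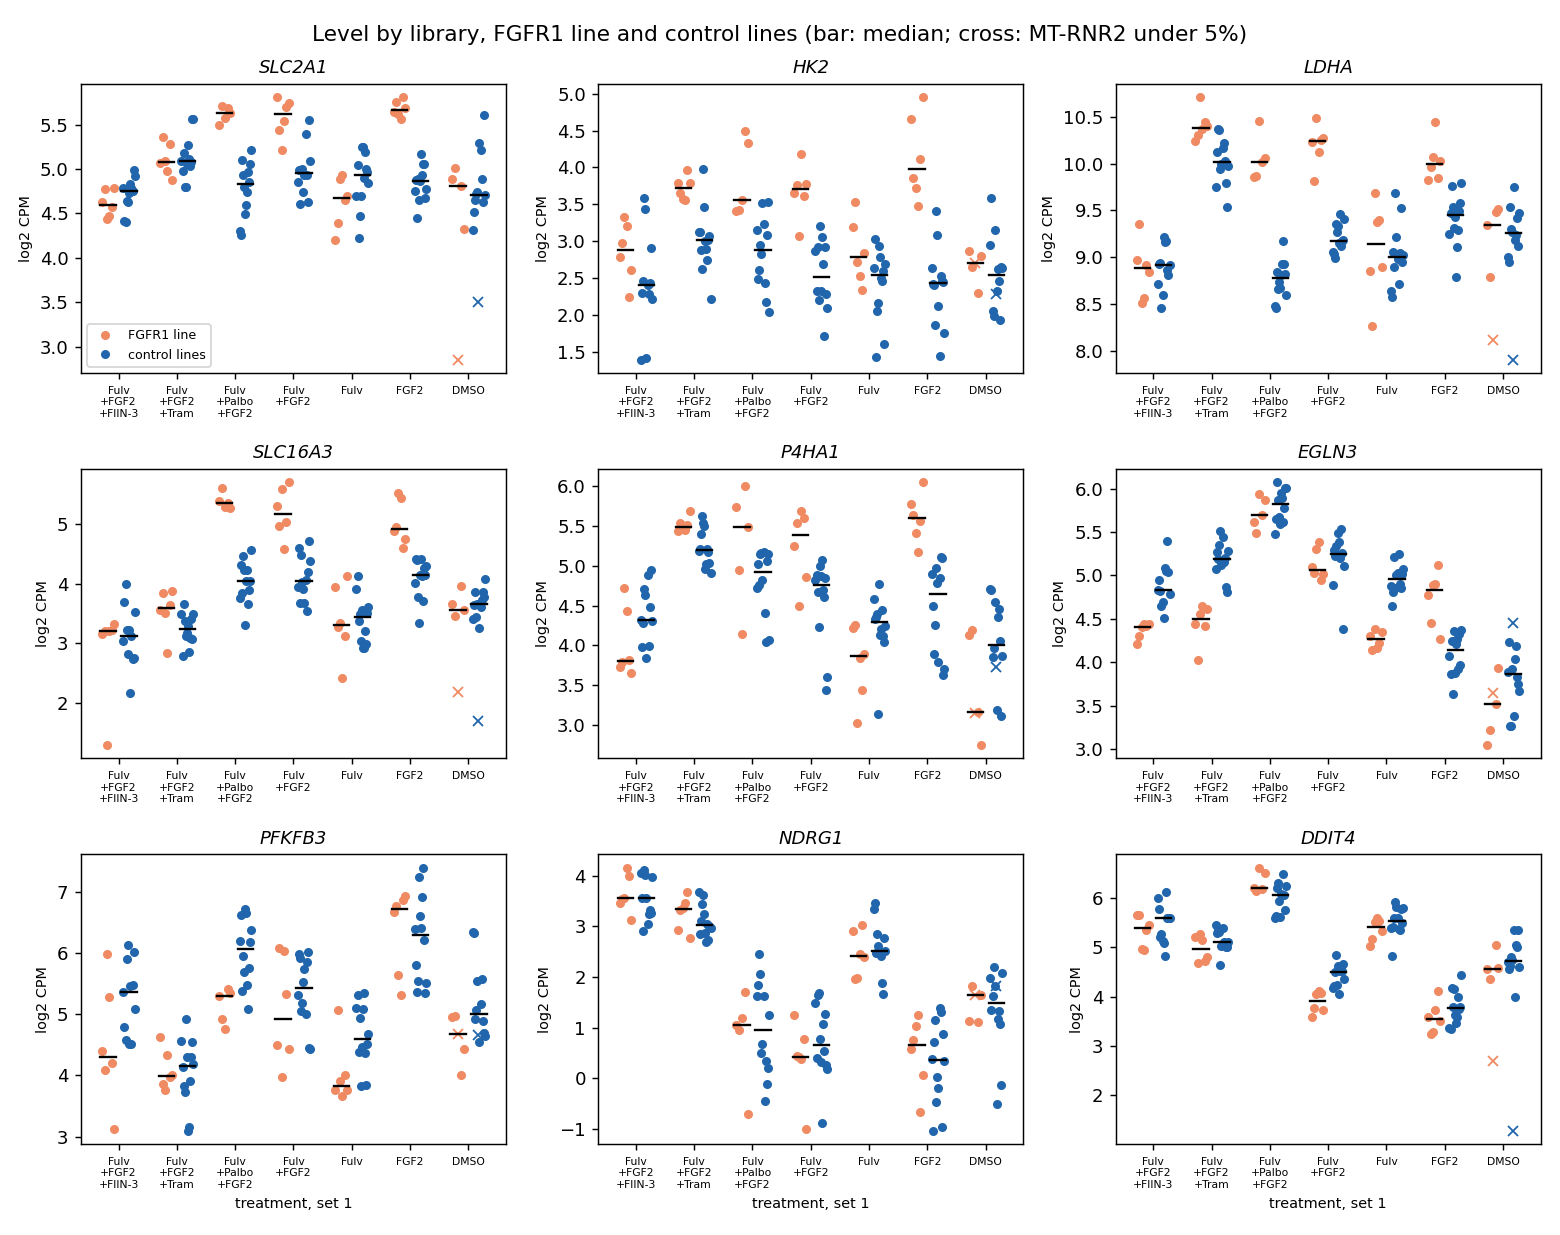
Expression of 9 members (log2 CPM) in every library of the FGFR1 line (orange, left) and the control lines (blue, right) under 7 treatments of set 1, where bars are medians and crosses mark libraries in which MT-RNR2 held under 5% of the counts. With fulvestrant and FGF2 the FGFR1 medians were 5.17 for SLC16A3 and 10.24 for LDHA, against 3.31 and 9.14 with fulvestrant alone, and DDIT4 ran the other way.

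In the 4 FGFR2 lines together FGF2 on fulvestrant raised 15 of 35 members and lowered 4, with 16.9% of all genes higher and 20.3% lower and a median of 0.25 over the members. PFKP was at 7.07, 7.57 and 7.97 log2 CPM in 24 libraries with FGF2, against 5.27, 6.56 and 7.11 in 24 without (0.96 ± 0.10). SLC2A1 was at 5.13, 5.88 and 6.26 with FGF2, against 3.82, 4.996 and 5.37 (0.84 ± 0.08). SLC16A3 was at 3.55, 5.05 and 5.77 with FGF2, against 1.42, 4.18 and 5.02 (0.95 ± 0.16), and P4HA1 at 4.24, 5.15 and 6.01 against 2.68, 4.37 and 4.98 (0.91 ± 0.15). Medians were higher with FGF2 in all 4 genes and the libraries overlapped. PFKFB3 (0.83), ENO2 (0.67), HK2 (0.63), LDHA (0.63), HIF1A (0.58), EGLN3 (0.57), ALDOA (0.38), PGK1 (0.37), PKM (0.32), ENO1 (0.25) and PDK3 (0.24) rose too, where ENO2 is the neuronal enolase. ALDOC (-0.68), PFKM (-0.42), DDIT4 (-0.41) and PFKFB4 (-0.36) fell, and NDRG1 did not pass at -0.62.

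The control lines had fewer calls. FGF2 on fulvestrant raised PFKFB3 (0.71), SLC16A3 (0.71), PFKP (0.62) and ENO2 (0.52) and lowered ALDOC (-0.34), ADM (-0.44), DDIT4 (-1.12) and NDRG1 (-1.93), 8 of 35 members where 7.02% of all genes were higher and 4.95% lower. PFKP was at 6.69, 6.88 and 7.05 log2 CPM in 12 libraries with FGF2, against 5.75, 6.22 and 6.61 in 12 without, and did not overlap. SLC16A3 was at 3.54, 4.05 and 4.71 with FGF2, against 2.92, 3.43 and 4.13, and DDIT4 at 4.05, 4.51 and 4.85 against 4.82, 5.53 and 5.91. DDIT4 overlapped at the edge, and the highest SLC16A3 without FGF2 lay above the median with it. PFKFB3 was at 4.43, 5.42 and 6.01 with FGF2, against 3.82, 4.60 and 5.35. SLC2A1 (0.07), LDHA (0.14), HK2 (0.13), PGK1 (0.05) and EGLN3 (0.23) did not pass in the control lines.

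The difference between line classes was tested as an interaction. On fulvestrant the FGF2 response of the FGFR1 line was above that of the control lines in P4HA1 (1.09), SLC16A3 (1.04), PFKP (0.99), LDHA (0.89), SLC2A1 (0.83), ALDOA (0.69), EGLN3 (0.61) and PKM (0.48) and below it in ALDOC (-0.78), 9 of 35 members where 4.79% of all genes were called. The edgeR adjusted p was 1.79e-05 for PFKP and 0.0061 for SLC2A1. For the FGFR2 lines SLC2A1 (0.78) and NDRG1 (1.31) passed, 2 members where 3.23% of all genes were called. Without the libraries that stand apart 4 members passed, where 5.25% of all genes were called. NDRG1 fell in the control lines and did not pass in the FGFR2 lines. With fulvestrant alone its group mean was 0.34 log2 CPM in FGFR2_K660N, -0.09 in FGFR2_N550K, 1.17 in FGFR2_M538I and 2.03 in FGFR2_WT. It was 2.87 in GFP and 2.28 in parental cells. With FGF2 added the group mean differed by -0.13, 0.17, -0.25 and -1.29 in these FGFR2 lines in the same order. Both interactions use the same control libraries.

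Without fulvestrant, FGF2 raised 13 of 34 members in the FGFR1 line relative to DMSO and lowered 3, with 14.4% of all genes higher and 17.3% lower and a median of 0.44 over the members. P4HA1 was at 5.18, 5.60 and 6.05 log2 CPM in 6 libraries with FGF2, against 2.75, 3.17 and 4.20 in 5 with DMSO (1.99 ± 0.28, edgeR adjusted p 0.000337). PFKFB3 was at 5.32, 6.73 and 6.94 with FGF2, against 4.002, 4.68 and 4.98 (1.79 ± 0.32). HK2 was at 3.47, 3.98 and 4.96 with FGF2, against 2.29, 2.70 and 2.86 (1.53 ± 0.29), and SLC16A3 at 4.60, 4.91 and 5.52 against 2.20, 3.57 and 3.96 (1.53 ± 0.27). None of the 4 overlapped, nor did PFKP (1.43), HIF1A (1.31), PDK1 (1.27), EGLN3 (1.21), SLC2A1 (1.08), PDK3 (0.88), LDHA (0.85) and PKM (0.74). The share of all genes without overlap was not computed. ALDOC (-1.24), ADM (-1.05) and DDIT4 (-0.89) fell. One of the DMSO libraries stands apart, and without it 16 members were called in the same direction, with 33.7% of all genes called. DDIT4 and PKM were no longer called without DMSO library 4 or 5.

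In the FGFR2 lines FGF2 raised 19 of 35 members relative to DMSO and lowered ALDOC and the mitophagy receptor BNIP3L, with 21.4% of all genes higher and 26.2% lower, 47.6% in all. Without the libraries that stand apart that share was 29.9%, and 21 members were called, 19 of them the same. These 6 libraries were all in DMSO, and the median over the members was 0.33 with them and 0.28 without. The fold changes below include them. SLC2A1 was at 4.89, 5.90 and 6.46 log2 CPM in 24 libraries with FGF2, against 3.69, 4.92 and 5.54 in 23 with DMSO (1.04 ± 0.11, edgeR adjusted p 1.44e-09). SLC16A3 rose by 1.17, P4HA1 by 1.07, PFKP by 1.01, HIF1A by 0.95, HK2 by 0.85, PDK1 by 0.67 and EGLN3 by 0.65. ALDOC fell by 0.74, and BNIP3L had -0.26, a direction that turned on the TPM scale, and it was not called without the libraries that stand apart. In the control lines PFKFB3 (1.07) and PFKP (0.50) rose and DDIT4 (-0.93), ADM (-0.73) and ALDOC (-0.61) fell, of 35 members and with 3.7% of all genes higher and 2.42% lower. That count was 7 without the library that stands apart, 3 higher and 4 lower, with 9.62% of all genes called.

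Relative to the control lines, the FGF2 response without fulvestrant was higher in the FGFR1 line for HK2 (1.78), P4HA1 (1.62), SLC2A1 (1.06), SLC16A3 (1.06), EGLN3 (1.04) and PFKP (0.96), 6 of 36 members with 3.24% of all genes called. This count was 9 without the libraries that stand apart, 8 higher and 1 lower, with 6.1% of all genes called. The FGFR2 lines exceeded the control lines for HK2 (1.08) and SLC2A1 (1.01), with 1.96% of all genes called. HK2 traps glucose in the cell, so both proteins act at glucose entry. SLC2A1 was thus called in all 4 tests of receptor lines against control lines.

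**Figure D2:**
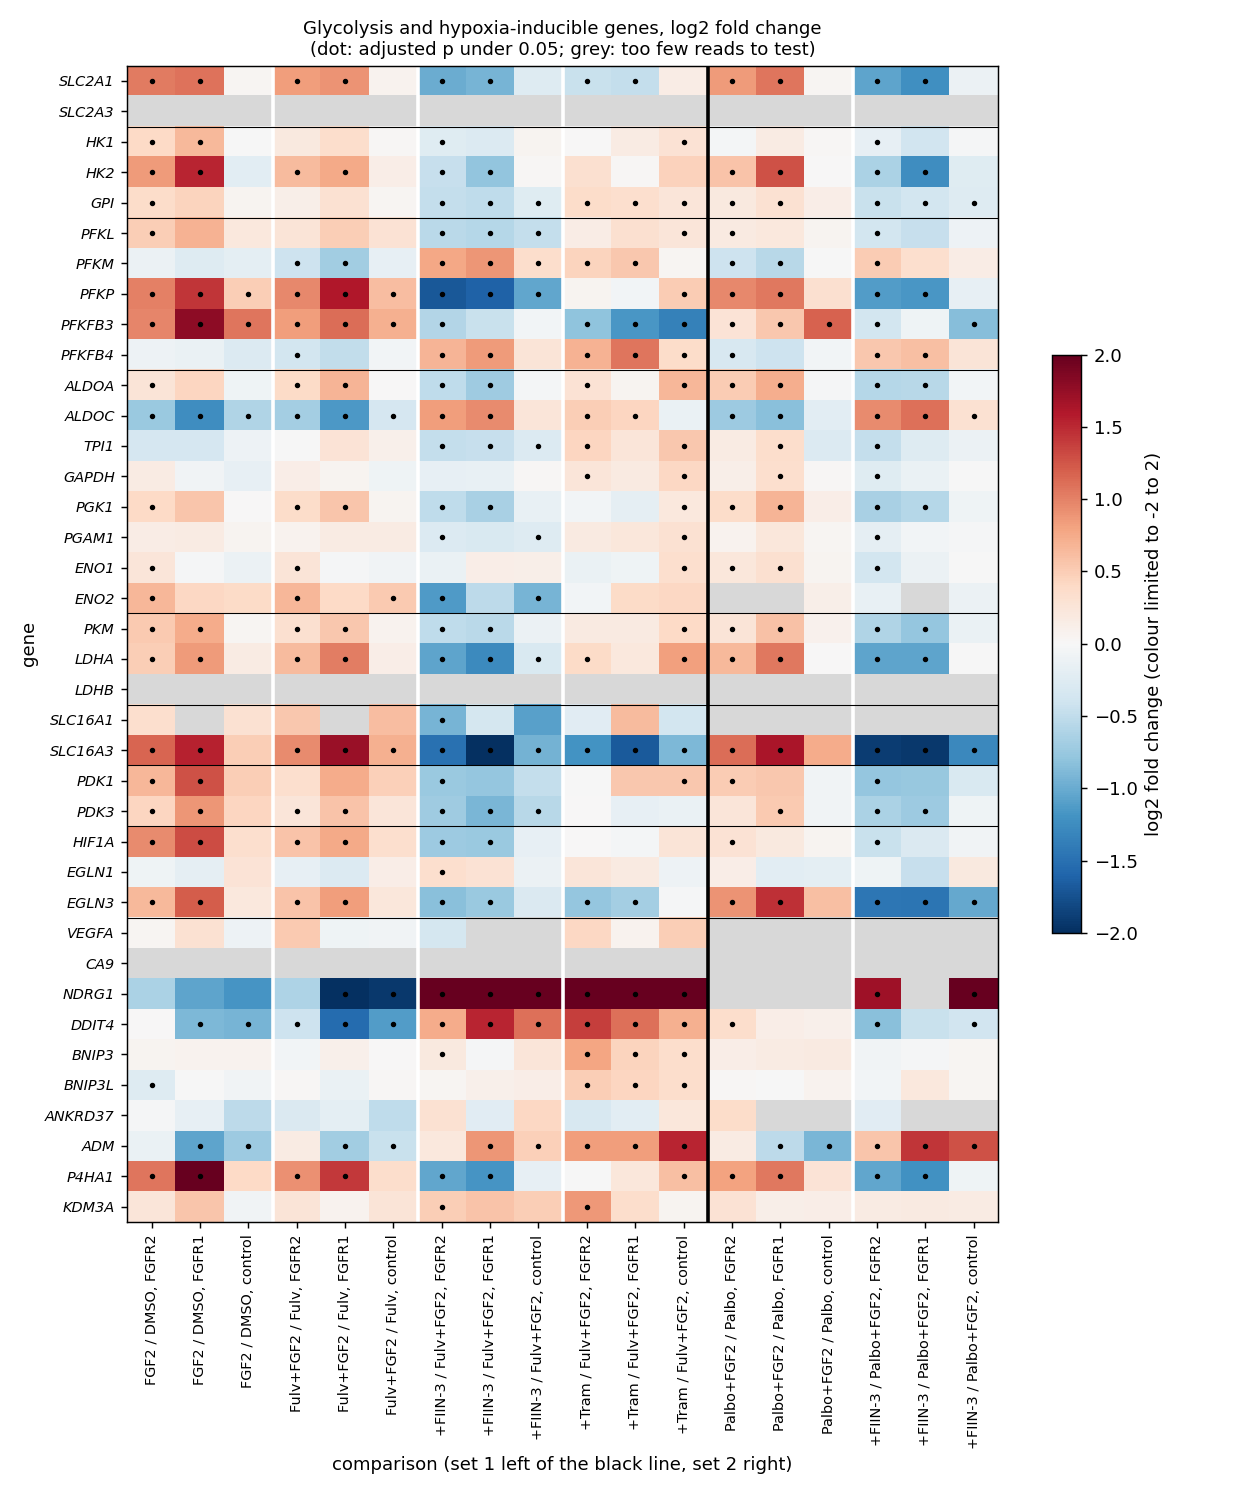
Fold changes (log2, colours limited to -2 and 2) of the members, with a row for each gene and a column for each comparison in the FGFR2, FGFR1 and control lines, set 1 left and set 2 right of the black line. A dot marks an adjusted p under 0.05 and grey a gene with too few reads; SLC2A1 has a dot with FGF2 on fulvestrant in the FGFR2 lines (0.84) and the FGFR1 line (0.89) and none in the control lines (0.07).

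Set 2 gave the FGF2 response on palbociclib in separate libraries. FGF2 raised 16 of 30 members in the FGFR1 line and lowered 3 (12.9% of all genes higher and 11.9% lower), raised 17 of 31 in the FGFR2 lines and lowered 3 (18.5% and 20.7%), and in the control lines raised PFKFB3 (1.18) and lowered ADM (-0.91) of 31 (0.778% and 0.331%), where 4 were called without the libraries that stand apart. EGLN3 in the FGFR1 line was at 4.52, 5.17 and 5.44 log2 CPM with palbociclib and FGF2, against 3.35, 3.69 and 3.97 with palbociclib (1.46 ± 0.18). HK2 was at 4.34, 4.54 and 4.90 with FGF2, against 2.31, 3.40 and 4.01 (1.28 ± 0.24). LDHA was at 10.04, 10.14 and 10.16 with FGF2, against 8.90, 9.04 and 9.21 (1.06 ± 0.07, edgeR adjusted p 2.4e-10). These did not overlap, and neither did SLC16A3 (1.63), SLC2A1 (1.08), PFKP (1.06) and P4HA1 (1.06). SLC16A3 (1.12), PFKP (0.96), EGLN3 (0.90) and SLC2A1 (0.84) rose in the FGFR2 lines.

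Of the members called on fulvestrant in the FGFR1 line, 15 were called in the same direction on palbociclib, 83.3% of the first list and 78.9% of the second. Over all genes the shares were 40.6% and 51%. The members shared were ALDOA, EGLN3, HK2, LDHA, P4HA1, PDK3, PFKFB3, PFKP, PGK1, PKM, SLC16A3 and SLC2A1, which rose, and ADM, ALDOC and PFKM, which fell. The FGFR2 lines shared 16 calls, 84.2% and 80%, where all genes gave 52.3% and 58.3%. DDIT4 was the exception there, with -0.41 on fulvestrant and 0.35 on palbociclib. HIF1A rose in the FGFR1 line on fulvestrant and did not pass on palbociclib (0.20).

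FIIN-3 added to fulvestrant and FGF2 lowered 15 of 34 members in the FGFR1 line and raised 6 (14.7% of all genes higher and 15.1% lower, median -0.45 over the members). The fulvestrant and FGF2 libraries are those of the FGF2 comparison, so the fold changes share them. SLC16A3 was at 1.29, 3.21 and 3.32 log2 CPM with FIIN-3, against 4.59, 5.17 and 5.70 without it (-2.21 ± 0.28, edgeR adjusted p 8.21e-06). PFKP was at 5.73, 6.04 and 6.35 with FIIN-3, against 7.62, 7.71 and 7.90 (-1.62 ± 0.13), and LDHA at 8.51, 8.88 and 9.36 against 9.82, 10.24 and 10.48 (-1.28 ± 0.15). None of the 3 overlapped. P4HA1 (-1.18), SLC2A1 (-0.94), PDK3 (-0.92), HK2 (-0.78), HIF1A (-0.74), EGLN3 (-0.74), ALDOA (-0.71), PGK1 (-0.65), PFKL (-0.58), PKM (-0.54), GPI (-0.51) and TPI1 (-0.46) fell as well, so that the glucose transporter, hexokinase, phosphofructokinase and lower glycolysis were all represented.

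The members that rose with FIIN-3 in the FGFR1 line were NDRG1 (3.49), DDIT4 (1.53), ALDOC (0.94), PFKM (0.89), ADM (0.88) and PFKFB4 (0.85). DDIT4 was at 4.95, 5.40 and 5.66 log2 CPM with FIIN-3, against 3.59, 3.90 and 4.12, with no overlap. NDRG1 was at 3.12, 3.55 and 4.16 with FIIN-3, against -1.002, 0.43 and 1.25. The isoforms again split, with PFKM and ALDOC up where PFKP and ALDOA were down.

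In the FGFR2 lines FIIN-3 lowered 21 of 35 members and raised 8 (30.3% of all genes higher and 28.6% lower, median -0.47). PFKP was at 4.37, 5.83 and 6.33 log2 CPM in 24 libraries with FIIN-3, against 7.07, 7.57 and 7.97 in 24 without, with no overlap (-1.70 ± 0.08, edgeR adjusted p 2.64e-24). LDHA was at 7.51, 8.48 and 9.02 with FIIN-3, against 8.81, 9.56 and 10.63 (-1.06 ± 0.10). SLC16A3 (-1.49), ENO2 (-1.13), P4HA1 (-1.04), SLC2A1 (-0.999), SLC16A1 (-0.92), EGLN3 (-0.84), PDK1 (-0.74) and HIF1A (-0.72) fell with overlap, and NDRG1 (2.90), ALDOC (0.84), PFKM (0.77), DDIT4 (0.74) and PFKFB4 (0.68) rose. SLC16A1 is the lactate carrier MCT1. KDM3A, a histone demethylase induced by HIF, rose by 0.50 and the prolyl hydroxylase EGLN1 by 0.34, a call lost when the libraries that stand apart were left out (edgeR adjusted p 0.0697).

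The control lines had 4 members higher and 9 lower of 34 with FIIN-3 on fulvestrant and FGF2 (10.9% of all genes higher and 13.8% lower), or 6 higher and 8 lower with DESeq2's size factors. PFKP was at 5.39, 5.83 and 6.05 log2 CPM in 11 libraries with FIIN-3, against 6.69, 6.88 and 7.05 in 12 without, and did not overlap (-1.03 ± 0.08). SLC16A3 was at 2.17, 3.12 and 3.997 with FIIN-3, against 3.54, 4.05 and 4.71 (-0.95 ± 0.18), and DDIT4 at 4.83, 5.58 and 6.11 against 4.05, 4.51 and 4.85 (1.09 ± 0.13). ENO2 (-0.94), PDK3 (-0.55), PFKL (-0.48) and LDHA (-0.30) fell and NDRG1 rose by 2.94. SLC2A1 (-0.26) and HK2 (0.02) did not pass.

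On palbociclib and FGF2 FIIN-3 lowered 12 of 30 members in the FGFR1 line (7.5% of all genes lower), 22 of 33 in the FGFR2 lines (26.8%) and 5 of 32 in the control lines (4.7%). It raised 3, 5 and 3 members in the same classes, where 940 of 10631, 3267 of 11567 and 531 of 11173 genes were higher. SLC16A3 in the FGFR1 line was at 2.56, 2.86 and 3.41 log2 CPM with FIIN-3, against 4.51, 4.78 and 5.18 (-1.93 ± 0.21). EGLN3 was at 2.04, 3.52 and 4.49 with FIIN-3, against 4.52, 5.17 and 5.44 (-1.46 ± 0.29), and HK2 at 3.01, 3.31 and 3.73 against 4.34, 4.54 and 4.90 (-1.24 ± 0.19). ADM went the other way, at 5.98, 6.46 and 7.10 with FIIN-3, against 4.88, 5.14 and 5.44 (1.43 ± 0.19). The groups did not overlap in these 4 genes. Without overlap PFKP (-1.12), SLC2A1 (-1.05) and PGK1 (-0.65) fell in the FGFR2 lines, and SLC16A3 (-1.91), EGLN3 (-1.45), LDHA (-1.06) and P4HA1 (-1.04) fell with overlap.

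The FIIN-3 calls of the FGFR1 line on fulvestrant and on palbociclib shared 15 members, 71.4% of the first list and 100% of the second, where all genes gave 34.6% and 72.5%. The FGFR2 lines shared 23 calls, 79.3% and 85.2%, where all genes gave 58.9% and 72.5%. DDIT4 was called in opposite directions in the FGFR2 lines, 0.74 on fulvestrant and -0.83 on palbociclib, and in the control lines, 1.09 and -0.38.

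The mean of log2 CPM over the 38 members gave the order of the groups. In the FGFR1 line it was 4.72 with DMSO, 5.22 with FGF2, 4.85 with fulvestrant, 5.14 with FGF2 added, and 4.88, 5.36 and 5.24 with FIIN-3, trametinib and palbociclib added to both. In FGFR2_WT the same treatments gave 4.71, 5.11, 4.70, 5.16, 4.81, 5.42 and 5.23. In parental cells they gave 4.98, 4.99, 4.94, 4.99, 4.92, 5.26 and 4.93. FGFR1 and FGFR2_WT cells were higher with FGF2 than without it, and trametinib gave the highest mean of these 3 lines. Other lines differed in this. On fulvestrant FGFR2_K660N had a mean of 4.96 with FGF2, against 4.90 without, a difference as small as that of GFP cells, 5.02 against 4.94. In FGFR2_M538I palbociclib gave 5.251, above the 5.204 of trametinib. With the median over members in place of the mean, palbociclib lay above trametinib in the FGFR1 line (5.51 and 5.23) and in parental cells (5.33 and 5.21). In set 2 the FGFR1 line had 5.15 with palbociclib, 5.50 with FGF2 added and 5.16 with FIIN-3 added to both. Without the libraries that stand apart the mean was 4.83 in the FGFR1 line with DMSO, and 4.82 with DMSO and 4.81 with fulvestrant in FGFR2_WT. Each gene weighs the same in this mean, so it also carries members that moved the other way.

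**Figure D3:**
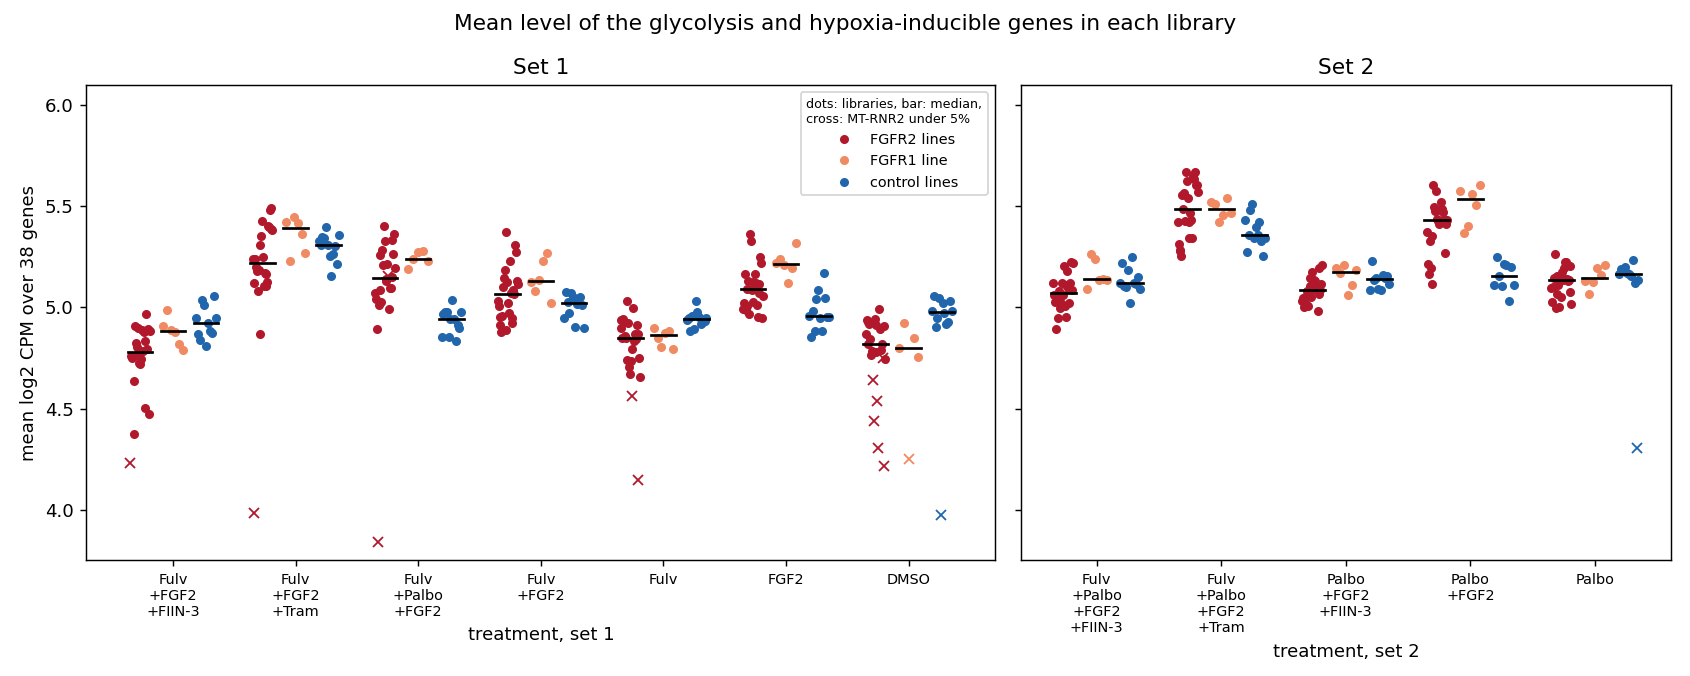
Mean of log2 CPM over the 38 members in each library by treatment and line class, with set 1 and set 2 in separate panels; bars are medians and crosses mark libraries in which MT-RNR2 held under 5% of the counts. In the FGFR1 line the group mean was 5.22 with FGF2, against 4.72 with DMSO, and most crosses lie below the dots of their group.

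Trametinib, which acts below the receptor, gave another pattern on fulvestrant and FGF2. It raised 9 of 35 members and lowered 4 in the FGFR1 line (5.48% of all genes higher and 5.83% lower), raised 14 and lowered 4 in the FGFR2 lines (15.3% and 13.7%) and raised 20 and lowered 2 in the control lines (11.8% and 16%, median 0.33). SLC16A3 in the FGFR1 line was at 2.85, 3.60 and 3.89 log2 CPM with trametinib, against 4.59, 5.17 and 5.70 without, and did not overlap (-1.68 ± 0.20, edgeR adjusted p 8.12e-06). It also fell in the FGFR2 lines by 1.19 and in the control lines by 0.90. PFKFB3 fell by 1.16, 0.80 and 1.35 in the FGFR1, FGFR2 and control lines. SLC2A1 (-0.47 and -0.45) and EGLN3 (-0.68 and -0.77) fell in the FGFR1 and FGFR2 lines.

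PFKP and LDHA, which fell with FIIN-3, did not pass with trametinib in the FGFR1 line. PFKP there had a log2 fold change of -0.05 and LDHA of 0.21 (edgeR adjusted p 0.179), and P4HA1 (0.22), PGK1 (-0.18) and HK2 (0.02) did not pass either. In the control lines LDHA was at 9.53, 10.01 and 10.37 log2 CPM in 12 libraries with trametinib, against 8.99, 9.18 and 9.47 in 12 without, and did not overlap (0.82 ± 0.08). ALDOA (0.66), P4HA1 (0.60), PDK1 (0.55), TPI1 (0.54), PFKP (0.50), GAPDH (0.42), PKM (0.39) and PGK1 (0.21) rose there too. Among the FGFR2 lines' higher members were TPI1 (0.43), LDHA (0.38), GPI (0.36), ALDOA (0.29) and GAPDH (0.24).

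ADM, NDRG1, DDIT4, BNIP3, BNIP3L, PFKFB4 and GPI were higher with trametinib in all 3 line classes. ADM was at 5.27, 6.14 and 6.67 log2 CPM in the control lines with trametinib, against 3.96, 4.51 and 5.23, with no overlap (1.52 ± 0.12), and it rose by 0.84 in the FGFR1 line and by 0.84 in the FGFR2 lines. NDRG1 rose by 3.05, 2.73 and 2.41 in the FGFR1, FGFR2 and control lines. DDIT4 rose by 1.10, 1.39 and 0.71, BNIP3 by 0.44, 0.79 and 0.35, and BNIP3L by 0.44, 0.48 and 0.35. BNIP3 and BNIP3L are both receptors for the removal of mitochondria. PFKFB4, which shares the reaction of PFKFB3, was at 3.88, 4.16 and 4.39 in the FGFR1 line with trametinib, against 2.63, 2.94 and 3.79 (1.07 ± 0.20), and KDM3A rose by 0.87 in the FGFR2 lines.

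Trametinib was set against FIIN-3 directly, on fulvestrant and FGF2, in comparisons chosen after the values were seen. Of the members, 18 were higher with trametinib and 3 lower of 35 in the FGFR1 line (13.6% of all genes higher and 16.4% lower, median 0.43), 24 and 3 in the FGFR2 lines (25.5% and 25.9%, median 0.59) and 20 and 5 in the control lines (21.7% and 21.5%). LDHA was at 10.24, 10.39 and 10.71 log2 CPM in the FGFR1 line with trametinib, against 8.51, 8.88 and 9.36 with FIIN-3 (1.44 ± 0.14, edgeR adjusted p 1.16e-07). PFKP was at 7.46, 7.71 and 7.83 with trametinib, against 5.73, 6.04 and 6.35 (1.52 ± 0.12), and P4HA1 at 5.43, 5.49 and 5.69 against 3.66, 3.80 and 4.72 (1.36 ± 0.17). The inhibitors did not overlap in these 3 genes. SLC16A3 (0.48, edgeR adjusted p 0.184) and EGLN3 (0.01, adjusted p 0.963), which fell with both inhibitors, did not pass in the FGFR1 line. EGLN3 was called higher with trametinib in the control lines.

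LDHA was also higher with trametinib than with FIIN-3 by 1.43 in the FGFR2 lines and by 1.12 in the control lines. PFKP was higher by 1.75 and 1.54 in the same lines, TPI1 by 0.88 and 0.82, and GPI, the glucose phosphate isomerase, by 0.83 and 0.50. PFKM and ALDOC were lower with trametinib in all 3 classes, by 0.39 and 0.56 in the FGFR1 line. PFKFB3 was at 3.10, 4.16 and 4.92 log2 CPM with trametinib in the control lines, against 4.51, 5.36 and 6.13 with FIIN-3 (-1.29 ± 0.20). VEGFA had its single call here, higher by 0.73 with trametinib in the FGFR2 lines (edgeR adjusted p 0.0063).

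The order of the inhibitors was measured again with palbociclib present, in set 2. The calls shared with set 1 in the same direction were 16 in the FGFR1 line (76.2% of the set 1 list and 72.7% of the set 2 list), 24 in the FGFR2 lines (88.9% and 92.3%) and 20 in the control lines (80% and 87%). Over all genes the shares of the set 1 and set 2 lists were 42.2% and 59.4% in the FGFR1 line, 67.3% and 70.2% in the FGFR2 lines and 53.3% and 69.1% in the control lines. In set 2 25.1%, 55.7% and 39.1% of all genes were called in these classes. LDHA in the FGFR1 line was at 10.25, 10.32 and 10.57 log2 CPM with trametinib, against 8.54, 8.67 and 8.82 with FIIN-3 (1.72 ± 0.09). It was at 9.41, 10.07 and 11.08 with trametinib in the FGFR2 lines, against 7.87, 8.38 and 8.87 (1.70 ± 0.08), and at 9.80, 9.95 and 10.46 in the control lines, against 8.54, 8.77 and 9.18 (1.17 ± 0.08). LDHA did not overlap between the inhibitors in any class of set 2. PFKFB3 was lower with trametinib by 1.22, 0.72 and 1.59 in the FGFR1, FGFR2 and control lines. SLC16A3, not called in set 1, was higher with trametinib by 0.92 in the FGFR1 line of set 2. It did not pass in the FGFR2 (0.29) and control lines (-0.07). DDIT4 was called in opposite directions in the FGFR1 line, -0.47 in set 1 and 0.65 in set 2, and in the control lines, -0.38 and 0.51.

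**Figure D4:**
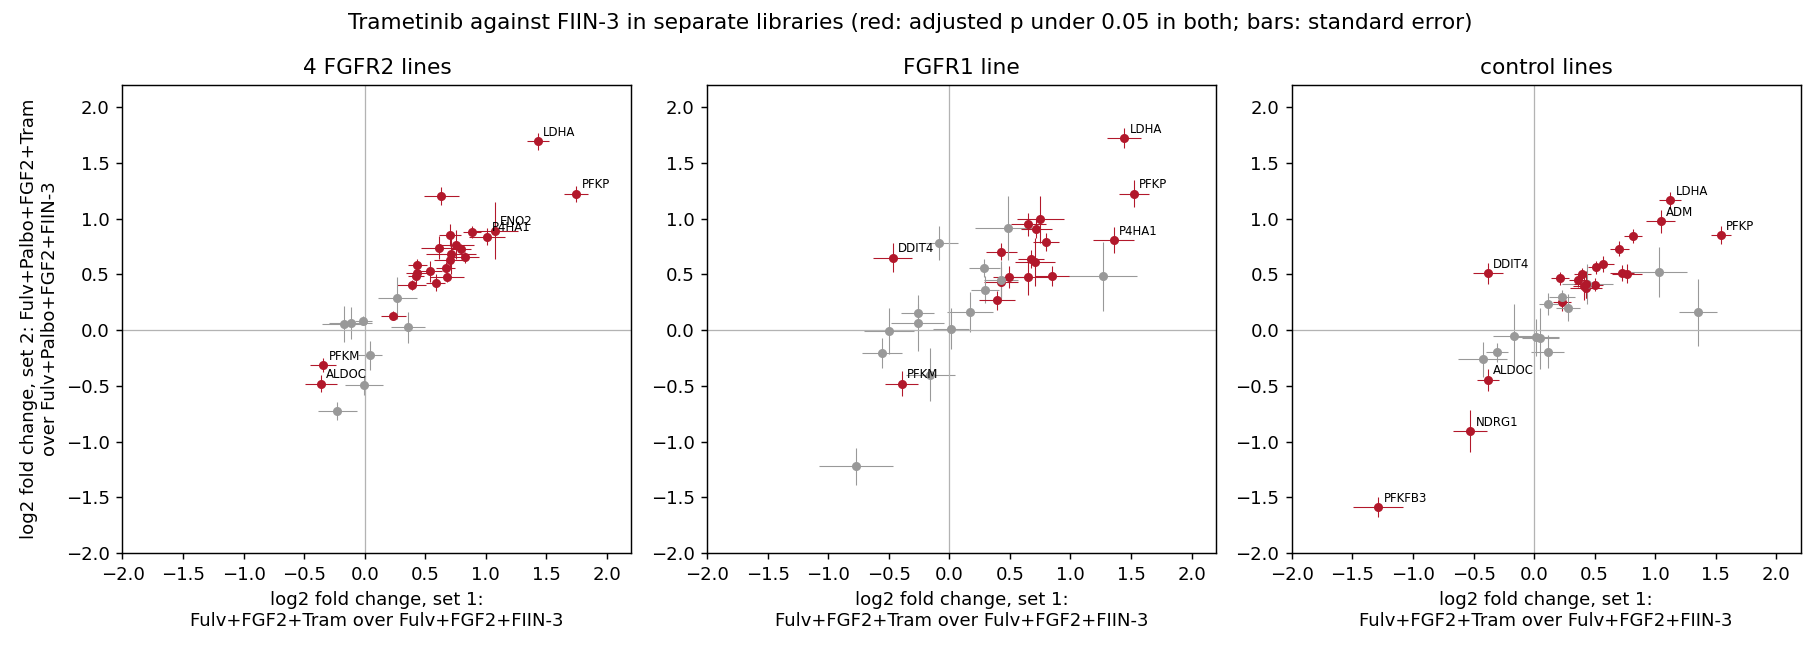
Fold change of trametinib over FIIN-3 (log2) in set 1 on fulvestrant and FGF2 (horizontal) against set 2 with palbociclib present (vertical), 1 point a member, in the FGFR2, FGFR1 and control lines. Bars are standard errors and red points were called in both sets; LDHA stands high in all 3 panels, at 1.43, 1.44 and 1.12 in set 1.

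Palbociclib added to fulvestrant and FGF2 raised DDIT4 and EGLN3 and lowered PFKP in all 3 line classes. DDIT4 in the FGFR1 line was at 6.14, 6.19 and 6.61 log2 CPM in 5 libraries with palbociclib, against 3.59, 3.90 and 4.12 in 6 without (2.44 ± 0.15, edgeR adjusted p 1.13e-09). EGLN3 was at 5.49, 5.69 and 5.94 with palbociclib, against 4.95, 5.06 and 5.38 (0.58 ± 0.14), and PFKP at 6.39, 6.68 and 6.95 against 7.62, 7.71 and 7.90 (-1.09 ± 0.13). None of the 3 overlapped, and they were the only members called of 34, with 4.37% of all genes higher and 8.32% lower. In the FGFR2 lines 8 members rose and 4 fell (18% of all genes higher and 17.6% lower), among them DDIT4 (2.05) and EGLN3 (0.60) and PFKP (-0.88) and ENO2 (-1.08). In the control lines 5 rose and 9 fell (11.3% and 14.6%), among them DDIT4 (1.56) and EGLN3 (0.57) and PFKP (-1.34), ENO2 (-1.65), SLC16A1 (-1.25) and LDHA (-0.46). SLC2A1 did not pass in any class, with 0.01, 0.03 and -0.21 in the FGFR1, FGFR2 and control lines.

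Fulvestrant alone moved few members. EGLN3 in the control lines was at 4.65, 4.95 and 5.25 log2 CPM in 12 libraries with fulvestrant, against 3.26, 3.86 and 4.45 in 12 with DMSO, and did not overlap (1.12 ± 0.14, edgeR adjusted p 5e-06). NDRG1 (1.23) and DDIT4 (0.85) rose and ADM (-0.81) fell with overlap, making 4 of 35 members where 1.55% of all genes were called. In the FGFR2 lines EGLN3 was at 3.64, 4.35 and 4.82 with fulvestrant, against 2.99, 3.79 and 4.73 (0.58 ± 0.10), and ADM (-0.59) and PFKFB3 (-0.58) fell, with 2.94% of all genes called. Leaving out the libraries that stand apart gave 4 members called in the FGFR2 lines, with 4.08% of all genes called. In the FGFR1 line edgeR called 0 of 34 members and 0.0791% of all genes. EGLN3 (0.81), NDRG1 (1.13) and DDIT4 (0.98) were the 3 members with an unadjusted p under 0.05 there. Whether the lines differ in their response to fulvestrant was not tested.

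The FGFR2 forms were compared with FGFR2_WT in comparisons chosen after the values were seen. The difference of group means between fulvestrant with and without FGF2 was 1.38 log2 CPM for SLC16A3 in FGFR2_M538I, 0.59 in FGFR2_N550K and -0.02 in FGFR2_K660N, against 2.01 in FGFR2_WT. For LDHA it was 0.88, 0.52 and 0.14 in the same lines, against 1.11 in FGFR2_WT. For SLC2A1 it was 1.17, 0.80 and 0.33, against 1.21. FGFR2_K660N had the smallest difference of the 4 forms in each of the 3 genes, and also for HK2 (0.19), PFKP (0.46) and P4HA1 (0.26). For EGLN3, HIF1A and PFKFB3 the smallest was in FGFR2_N550K, with 0.05, 0.36 and 0.18, beside 0.51, 0.50 and 0.57 in FGFR2_K660N. The interaction passed in FGFR2_K660N for SLC16A3 (-1.77 ± 0.36, edgeR adjusted p 0.0231) and PFKP (-1.07 ± 0.21, adjusted p 0.0188), 2 of 35 members where 0.486% of all genes were called. In FGFR2_N550K edgeR called 0 members (0.323% of all genes) and 8 had an unadjusted p under 0.05, and in FGFR2_M538I it called 0 (0%) and 3 had one. One FGFR2_WT fulvestrant library stands apart, and without the libraries that stand apart the counts were 3 in FGFR2_K660N, 6 in FGFR2_N550K and 0 in FGFR2_M538I, with 1.08%, 2.7% and 0% of all genes called.

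With fulvestrant alone the FGFR2_K660N line already had higher SLC16A3, at 4.13, 4.53 and 4.80 log2 CPM, against 1.42, 3.46 and 4.01 in FGFR2_WT, with no overlap (1.05 ± 0.27). PFKFB3 was at 4.42, 5.31 and 6.16 in FGFR2_K660N, against 3.09, 4.03 and 4.17, also without overlap (1.51 ± 0.28). P4HA1 (0.87) and PFKP (0.63) were higher and ALDOC (-0.90), ADM (-1.12) and NDRG1 (-1.76) lower, 7 of 33 members where 14.1% of all genes were called. FGFR2_N550K had PFKFB3 (1.36) higher and ADM (-1.48) and ALDOC (-1.16) lower (2.72% of all genes). ALDOC was at 4.37, 4.70 and 5.12 in FGFR2_N550K, against 5.62, 5.82 and 5.92 in FGFR2_WT, and did not overlap. The fulvestrant libraries are shared with the interactions. Without the libraries that stand apart 16 members were called in FGFR2_K660N (23.9% of all genes), 16 in FGFR2_N550K (29.7%) and 1 in FGFR2_M538I (0.141%), among them all those called with every library.

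On palbociclib the FGF2 response was smaller than in FGFR2_WT for PFKP (-0.97), LDHA (-0.79), PKM (-0.60) and PGK1 (-0.42) in FGFR2_K660N, 4 of 30 members with 1.97% of all genes called. In FGFR2_N550K it was smaller for EGLN3 (-1.25), LDHA (-0.52) and PGK1 (-0.43) and higher for ADM (1.29), 4 of 32 with 1.65%. The FGFR2_N550K count was 2 when FGF2 library 2, 3 or 5 of that line was left out, and LDHA and PGK1 were no longer called. With palbociclib alone EGLN3 was at 4.16, 4.76 and 5.10 log2 CPM in FGFR2_N550K, against 3.12, 3.49 and 4.10 in FGFR2_WT (1.15 ± 0.21). ADM was at 3.34, 3.80 and 4.34 in FGFR2_N550K and 3.69, 4.44 and 5.11 in FGFR2_K660N, against 5.24, 5.59 and 5.79 in FGFR2_WT. Neither gene overlapped with FGFR2_WT. In all 5 members were higher and 2 lower in FGFR2_N550K (8.62% of all genes), and 2 and 2 in FGFR2_K660N (4.76%).

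**Figure D5:**
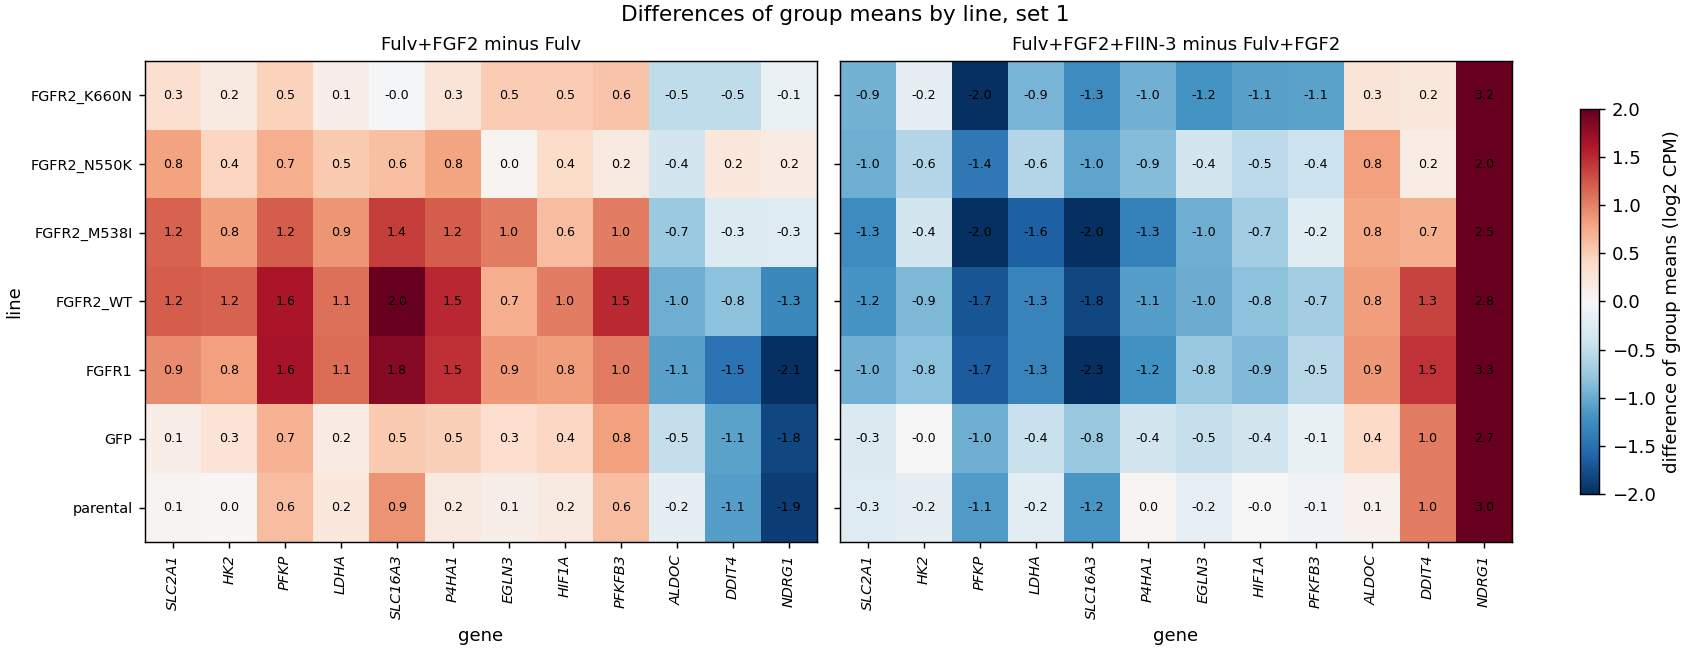
Difference of group means (log2 CPM, number and colour in each cell) of 12 members in 7 lines, for fulvestrant with FGF2 minus fulvestrant alone and for FIIN-3 added to both minus fulvestrant with FGF2. SLC16A3 in the first block was -0.02 in FGFR2_K660N, against 2.01 in FGFR2_WT.

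In DMSO the lines were set against GFP cells. ADM was at 3.42, 4.02 and 4.66 log2 CPM in FGFR2_N550K, against 4.04, 5.93 and 6.23 in GFP cells (-1.83 ± 0.31, edgeR adjusted p 0.00636), the only one called of 34 members (1.6% of all genes). FGFR2_K660N had ADM (-1.29) and NDRG1 (-2.15) lower (1.51% of all genes). Without the libraries that stand apart 6 members were called in FGFR2_N550K (7.93% of all genes) and 4 in FGFR2_K660N (3.26%). The FGF3 line had LDHB (2.48), SLC2A1 (1.53), PKM (1.12) and ENO1 (1.09) higher and BNIP3 (-0.97) and ADM (-3.03) lower, 6 of 34 with 7.18% of all genes called. SLC2A1 was at 5.47, 5.94 and 6.17 in 5 FGF3 libraries, against 3.50, 4.59 and 4.74 in 6 GFP libraries, and did not overlap. The count for FGF3 was 15 without the libraries that stand apart (19.8% of all genes), where LDHB had too few reads to be tested, and 0 without those of low depth (totals under 0.333 of the median of their set), which leaves 1 FGF3 DMSO library. It was 3, 2, 4, 3 and 3 when FGF3 DMSO libraries 1, 2, 3, 4 and 5 were left out in turn, and SLC2A1 and ADM were called each time. ENO1 was not called in any of these 5 fits, LDHB and PKM were called in that without library 3 alone, and BNIP3 was lost without library 2 or 3. With no filter on low counts ENO1 and LDHB were not called.

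FIIN-3 in the FGF3 line, which received no FGF2, lowered PFKP (-1.01) and PFKL (-0.75) and raised NDRG1 (2.40), DDIT4 (0.97) and BNIP3 (0.73), 5 of 32 members where 10.4% of all genes were called. PFKP was at 5.76, 6.22 and 6.41 log2 CPM with FIIN-3, against 6.97, 7.06 and 7.36 with DMSO, and did not overlap. With 1 FGF3 DMSO library left after those of low depth the count was 1 and none of these 5 was called. BNIP3 was also lost without FGF3 DMSO library 1, 2, 3 or 5. Trametinib on fulvestrant lowered SLC16A3 (-1.80) and PFKFB3 (-1.60) and raised NDRG1 (1.21) (7.43% of all genes), where NDRG1 was no longer called without FGF3 fulvestrant library 1, 2 or 3. SLC16A3 was at 2.79, 3.17 and 3.61 in 6 FGF3 libraries with trametinib, against 4.42, 5.01 and 5.19 in 4 with fulvestrant alone. In set 2 palbociclib raised DDIT4 (1.61) in FGF3 cells (6.54% of all genes), at 6.06, 6.31 and 6.58 with palbociclib, against -0.52, 4.82 and 5.12 in untreated cells, of which 1 was far below the rest. Without the library that stands apart 3 members were called, 1 higher and 2 lower, with 14.6% of all genes called.

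Other genes of the same pathways were called in both directions. FGF2 on fulvestrant in the FGFR1 line raised 2 of 10 other glycolysis genes, PGM2 (0.68) and ADPGK (0.58), and lowered 3, PDK2 (-0.76), BPGM (-0.46) and PFKFB2 (-0.45). Of 25 other hypoxia genes it raised 3, PLOD2 (0.97), ERO1A (0.85) and P4HA2 (0.51), which act in collagen or disulfide formation, and lowered 4, among them CITED2 (-1.79), KDM4B (-1.57) and MXI1 (-1.47). Over all genes 12.7% were higher and 14% lower in this comparison. CITED2 competes with HIF1A for a coactivator, and MXI1 opposes MYC. In the same line FIIN-3 on fulvestrant and FGF2 raised 5 of 24 other hypoxia genes, among them MXI1 (1.78), CITED2 (1.57) and KDM4B (1.25). It lowered 3, PLOD2 (-0.91), ERO1A (-0.89) and P4HA2 (-0.57), where 14.7% of all genes were higher and 15.1% lower. In the FGFR2 lines trametinib gave 11 of 25 other hypoxia genes higher than FIIN-3, among them P4HA2 (1.14), TFRC (0.83) and ANGPTL4 (0.77). It gave 6 lower, among them CITED2 (-1.10), ZNF395 (-0.87) and KDM4B (-0.74), where 25.5% of all genes were higher and 25.9% lower.

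Pseudogenes named after 16 members are annotated, and reads may be split with them. Their rows held 0.891% of the counts of GAPDH, 1.2% of LDHA, 6.05% of BNIP3 and 15.4% of LDHB, so BNIP3 and LDHB are less certain. The pseudogene rows of SLC2A3 held 1200% of its own counts, so its values are uncertain. In bulk libraries fewer cells of a kind and less RNA per cell cannot be told apart.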

How the data were processed

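Reads from 647 SMART-Seq2 libraries of T47D lines were mapped by the authors with STAR to hg19, per the submitters' processing notes, and deposited as read counts per gene, with a second deposited table of log2(TPM + 1) values. Its 87 DMSO and FGF2 columns were used for levels per length and as an alternative scale, and 560 columns of values were not used here. Which strand was counted is not given in the sources used here. Groups came from the titles, and sets 1 and 2 from title numbers that occur again. Genes were tested within a set on the counts with edgeR 4.0.16 in R 4.3.3 (TMM, filterByExpr with a minimum count of 10, quasi-likelihood test, Benjamini-Hochberg over all genes tested, threshold 0.05), with line as a term where lines were pooled. Of 52 comparisons, 10 of them interactions, 18 were added after the data were seen: trametinib against FIIN-3 and the FGFR2 forms against FGFR2_WT. Levels are log2 CPM with TMM factors and a prior count of 2. No 2 libraries had identical counts (0 pairs). Totals are given with the results, and with 4 to 6 libraries a group the spread between them limits precision. The scripts were tested on simulated data.

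The members and lists were chosen with earlier results of these data known. Named are, in each comparison, up to 10 members a direction by smallest adjusted p, with library values for up to 4 of them with the largest change and a mean of at least 3 log2 CPM, and EGLN3, HK2, SLC2A1, LDHA, PGK1, VEGFA, PDK1, CA9 and HIF1A by their levels across the groups. Further members named with their values were chosen after these were seen. Alternatives were DESeq2 1.42.0, its size factors, no filter, limma 3.58.1 on log2(TPM + 1), a block for neighbouring title numbers, leaving out single libraries in groups of 5 or fewer, and leaving out libraries that stand apart or have low depth.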

Additional observations from a re-analysis of the deposited data

Results flagged for a closer look

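The mean of log2 CPM over the 38 members was examined in every group of libraries for a library whose gap to the others exceeds Dixon's critical value, which chance exceeds in about 1 in 20 groups. Of these, 11 groups held one, all of them low, and 8 of the libraries are among those in which MT-RNR2 held under 5% of the counts. With DMSO, GFP library 6 was at 3.97 (4.90 to 5.06 in the others), FGFR1 library 3 at 4.25 (4.75 to 4.92 in the others) and FGFR2_WT library 4 at 4.22 (4.75 to 4.91 in the others). With fulvestrant FGFR2_WT library 3 was at 4.14 (4.66 to 4.91 in the others). With fulvestrant and FGF2, FGFR2_K660N was at 3.98 (5.12 to 5.24 in the others) in library 3 with trametinib and at 3.84 (4.89 to 5.09 in the others) in library 4 with palbociclib, and FGFR2_WT library 5 with FIIN-3 was at 4.47 (4.80 to 4.97 in the others). In set 2 parental library 4 with palbociclib was at 4.30 (5.12 to 5.24 in the others), FGFR2_WT library 4 and FGFR2_M538I library 1 with palbociclib and FGF2 at 5.27 (5.41 to 5.49 in the others) and 5.11 (5.47 to 5.61 in the others), and FGF3 untreated library 3 at 4.24 (5.21 to 5.29 in the others). The part of these libraries in the results was measured by leaving out those that stand apart, and no cause of their low values was tested.

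The FGF2 response differed between lines by an interaction term (edgeR, adjusted over all genes). Without fulvestrant the FGFR1 line exceeded the control lines in SLC2A1 (1.06), HK2 (1.78), PFKP (0.96), P4HA1 (1.62), EGLN3 (1.04) and SLC16A3 (1.06), and the FGFR2 lines in SLC2A1 (1.01) and HK2 (1.08). On fulvestrant the FGFR1 line was above the control lines in SLC2A1 (0.83), PFKP (0.99), P4HA1 (1.09), LDHA (0.89), EGLN3 (0.61), PKM (0.48), ALDOA (0.69) and SLC16A3 (1.04) and below in ALDOC (-0.78), and the FGFR2 lines were above in SLC2A1 (0.78) and NDRG1 (1.31). Against FGFR2_WT, FGFR2_K660N was below in PFKP (-1.07) and SLC16A3 (-1.77) on fulvestrant and in PFKP (-0.97), LDHA (-0.79), PKM (-0.60) and PGK1 (-0.42) on palbociclib. FGFR2_N550K was above in ADM (1.29) and below in LDHA (-0.52), EGLN3 (-1.25) and PGK1 (-0.43) on palbociclib.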

How the results depend on the processing

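Each comparison was repeated with DESeq2's size factors, DESeq2's Wald test, no filter on low counts, a block for neighbouring title numbers and without the libraries that stand apart, and the values here are counts of members called. For the comparisons added after seeing the data these alternatives were added too. Without the libraries that stand apart the counts were 6 for FGFR2_N550K (1 with all), 4 for FGFR2_K660N (2) and 15 for FGF3 (6) against GFP in DMSO, 4 for FGF2 on palbociclib in the control lines (2), 3 for palbociclib in FGF3 cells (1), 4 for the FGFR2 interaction on fulvestrant (2) and 6 for that of FGFR2_N550K against FGFR2_WT (0). With fulvestrant alone they were 1 for FGFR2_M538I (0), 16 for FGFR2_N550K (3) and 16 for FGFR2_K660N (7) against FGFR2_WT. DESeq2's Wald test gave 2, 5 and 12 for the same 3 lines in DMSO, 2 for palbociclib in FGF3 cells, 2 and 4 for the FGFR2_N550K and FGFR2_K660N interactions, and 6 and 11 for these forms in fulvestrant. With no filter the counts were 1 for fulvestrant in the FGFR1 line (0 with it), 4 for FGF2 on palbociclib in the control lines, 2 for palbociclib in FGF3 cells (also 2 with DESeq2's size factors) and 4 for the FGFR2_K660N interaction. The replicate block, whose pairing the labels do not give, gave 6 in place of 3 for fulvestrant in the FGFR2 lines, 2 in place of 1 for FGFR2_N550K in DMSO and 4 in place of 2 for the FGFR2 interaction, and moved no other count by over 1.5 times. Leaving out the libraries of low depth gave 0 for FGF3 in DMSO, 1 for FIIN-3 (5 with all) and 3 for palbociclib in FGF3 cells, and limma on log2(TPM + 1) gave 3 for FGF2 in the control lines (5 with counts). Leaving out 1 library at a time gave 2 to 4 for FGF3 in DMSO, 4 to 6 for FIIN-3 and 2 to 4 for trametinib in FGF3 cells, 13 to 17 for FGF2 and 3 to 4 for palbociclib in the FGFR1 line, and 2 to 4 for the FGFR2_N550K interaction on palbociclib. One direction turned: BNIP3L with FGF2 in the FGFR2 lines was 0.13 with limma, against -0.26. Of single calls of members, 7 were lost with DESeq2's size factors, 2 with its Wald test, 39 with no filter, 5 with the block and 3 without the libraries that stand apart. Where limma was run it lost 6 and kept 33, removing low depth lost 12 and kept 3, and leaving out 1 library lost 35, 19.2% of those tried. The cause was not tested, except that low depth leaves 1 FGF3 DMSO library. Few reads limit what can be said of CA9, SLC2A3 and VEGFA, and why they are few was not tested. Lower depth limits low genes of set 2.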
